A study of Mus musculus with 6 samples.

Results

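Nfkbia and Tnfaip3 are a pair of genes whose products switch off NF-κB signalling, and both were measured in mouse bone marrow-derived macrophages with and without bacterial lipopolysaccharide (LPS). They were chosen by identifier, as the rows ENSMUST00000021413_at for Nfkbia and ENSMUST00000019997_at for Tnfaip3, and both rows were present, so that 2 of the 74007 transcript rows in the table are described. The macrophages came from the femoral marrow of 3 female C57BL/6J mice, 8 to 12 weeks old and fed normal chow, and were grown in medium that held 50 ng/mL of recombinant human M-CSF, a macrophage growth factor. The cells of each mouse were divided between both groups. The LPS group of 3 samples received LPS at 10 ng/mL on day 7 of culture and was incubated for 4 h, and the unstimulated group of 3 samples received no stimulus. Each sample gave total RNA for 1 Affymetrix exon array, which makes 6 arrays. The cells are primary cultures driven by a growth factor in vitro, and a single dose and a single time were sampled.

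LPS is recognised by the receptor TLR4, whose signal reaches the IκB kinase complex. The kinase marks IκBα, the product of Nfkbia, for degradation; IκBα holds NF-κB dimers in the cytoplasm, and its loss lets them enter the nucleus. NF-κB then drives transcription of Nfkbia itself, so that newly made IκBα takes NF-κB off its target genes again. Tnfaip3 encodes A20, a ubiquitin-editing enzyme that acts further upstream, where it restrains the ubiquitin-dependent steps between the receptor and the IκB kinase complex, and Tnfaip3 is likewise a known NF-κB target. In macrophages both proteins limit how long and how strongly inflammatory genes are expressed.

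Because both genes are known targets of the same factor, their promoters are shown with the matches to NF-κB motifs. The windows were taken from RefSeq on GRCm38.p6 and run 5′ to 3′ on the gene's own strand, from 250 bases before the annotated gene start to 50 bases after it. Nfkbia lies on the minus strand of chromosome 12 at 55489409 to 55492647, and its window is chr12:55492598-55492897. Tnfaip3 lies on the minus strand of chromosome 10 at 19000910 to 19015410, and the window at its outermost start is chr10:19015361-19015660. Capitals mark every match, on either strand, to the NF-κB consensus of 10 letters or to the 9-letter motif GGANTTTCC.
Nfkbia: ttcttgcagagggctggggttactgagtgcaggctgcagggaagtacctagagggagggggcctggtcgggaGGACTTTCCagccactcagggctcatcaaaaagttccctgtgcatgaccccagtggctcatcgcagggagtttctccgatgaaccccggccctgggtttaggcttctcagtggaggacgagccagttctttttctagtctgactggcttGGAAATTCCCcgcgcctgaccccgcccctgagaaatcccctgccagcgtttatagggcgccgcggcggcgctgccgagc
Tnfaip3: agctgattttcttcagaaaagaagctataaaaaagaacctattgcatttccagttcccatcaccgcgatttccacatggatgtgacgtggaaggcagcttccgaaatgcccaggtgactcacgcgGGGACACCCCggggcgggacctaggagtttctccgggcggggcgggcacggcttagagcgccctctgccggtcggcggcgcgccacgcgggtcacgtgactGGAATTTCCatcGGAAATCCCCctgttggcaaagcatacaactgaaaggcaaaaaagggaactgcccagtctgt

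In the Nfkbia window the letters GGAAATTCCC, at positions -29 to -20 from the gene start, matched the consensus on the opposite strand, and a match to GGANTTTCC lay inside it. A separate GGANTTTCC match, GGACTTTCC, stood at -178 to -170. The Tnfaip3 window held consensus matches at -125 to -116 (GGGACACCCC) and at -12 to -3 (GGAAATCCCC), with GGAATTTCC at -24 to -16 between that pair and close to the second. The 32851 RefSeq promoter windows of the same length include several windows for some genes. Of these windows, 4.51% held the consensus, 1.25% held GGANTTTCC and 0.600% held both. A single site can match both motifs, so the last share is not that of windows with separate sites. The consensus matched 2 or more times in 0.554% of windows. The second RefSeq window of Tnfaip3, at chr10:19011914-19012213, matched neither motif. Both windows with matches were richer in G and C, at 61.0% for Nfkbia and 56.7% for Tnfaip3, than the median window at 52.7%, and the part of base composition in these shares was not tested.

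Other motifs searched on both strands were the AP-1 motif TGACTCA, bound by Jun and Fos proteins, and GGGCGG, the GC box bound by Sp1. TGACTCA matched at -136 to -130 in the Tnfaip3 window and not in the Nfkbia window, and occurred in 5.20% of all windows. GGGCGG matched 3 times in the Tnfaip3 window, of which 2 overlapped by 1 base, and 1 time in the Nfkbia window; 35.7% of all windows held it. A match is a run of letters and was not tested for binding in these cells.

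**Figure D1:**
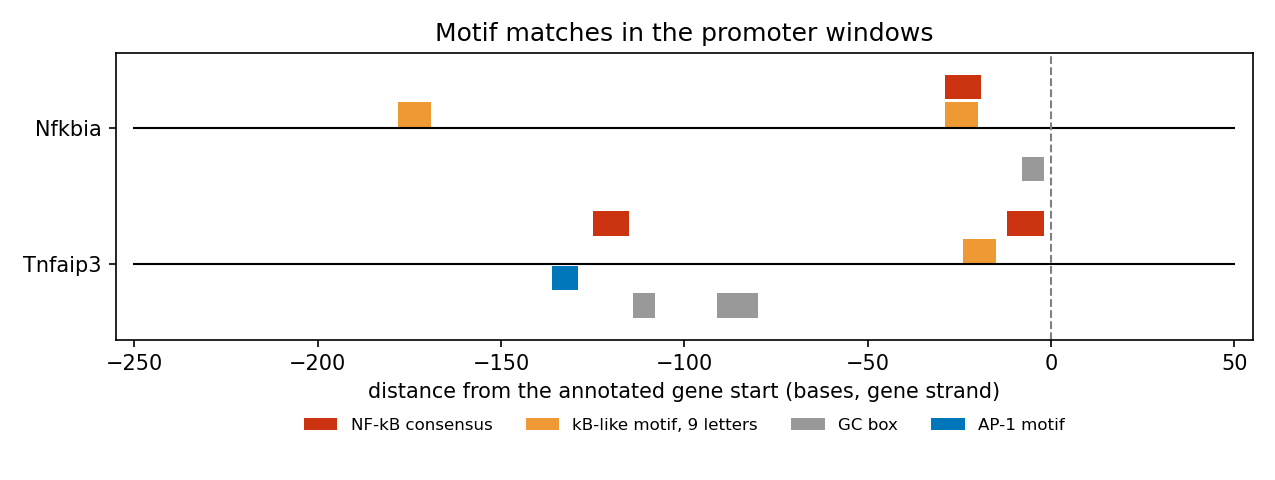
Motif matches in the RefSeq promoter windows of Nfkbia and Tnfaip3, plotted by distance from the annotated gene start in bases (dashed line at the start; each bar spans 1 match, on either strand). The NF-κB consensus matched once in the Nfkbia window, at -29 to -20, and at -125 to -116 and -12 to -3 in the Tnfaip3 window. The AP-1 match is in the Tnfaip3 window.

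The 6 arrays differed little within a group and clearly between groups. Across rows, which are not independent, Pearson's r was at least 0.986 within a group and at most 0.926 between groups. Array medians lay between 7.91 and 7.92 without LPS and between 7.75 and 7.77 with LPS, a shift of -0.15 on the log2 scale, while the median difference of single rows was -0.022. The files do not pair row identifiers with gene symbols and the gene table used here holds 0 Ensembl identifiers. The link of the pair of rows to their gene names therefore comes with the choice of rows. For the same reason other genes of the pathway and markers of macrophages or other cell types could not be named, and the labelled cell type was not checked.

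Nfkbia, the IκBα gene, was already well above the low end of the scale without LPS and rose further. Its log2 expression value was 9.65, 9.83 and 9.91 on unstimulated arrays 1, 2 and 3, and 12.80, 12.80 and 12.89 on LPS arrays 1, 2 and 3. All LPS arrays were higher than all unstimulated arrays, and the gap between the lowest LPS and the highest unstimulated array was 2.89. The means were 9.80 ± 0.14 without and 12.83 ± 0.051 with LPS (SD, n = 3 each). The log2 difference was 3.04 ± 0.078 (SE), an 8.20-fold rise. Its 95% confidence interval ran from 7.20-fold to 9.34-fold (limma with arrays taken as unpaired, adjusted p over all rows = 4.07e-06). LPS arrays of Nfkbia were closer together than unstimulated ones, spanning 0.089 against 0.26 on the log2 scale.

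Tnfaip3, the A20 gene, started near the middle of each array's signal distribution and ended near its upper end. Its log2 expression value was 7.77, 8.04 and 8.10 on unstimulated arrays 1, 2 and 3. It was 12.56, 12.29 and 12.21 on LPS arrays 1, 2 and 3. The groups again did not overlap, with a gap of 4.11 between the lowest LPS and the highest unstimulated array. The means were 7.97 ± 0.18 without and 12.36 ± 0.18 with LPS (SD, n = 3 each). The log2 difference was 4.39 ± 0.12 (SE), a 20.9-fold rise. Its 95% confidence interval ran from 17.1-fold to 25.6-fold (limma with arrays taken as unpaired, adjusted p over all rows = 4.54e-06). In bulk RNA a rise in each cell and a rise in a larger share of cells cannot be told apart, for either gene.

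**Figure D2:**
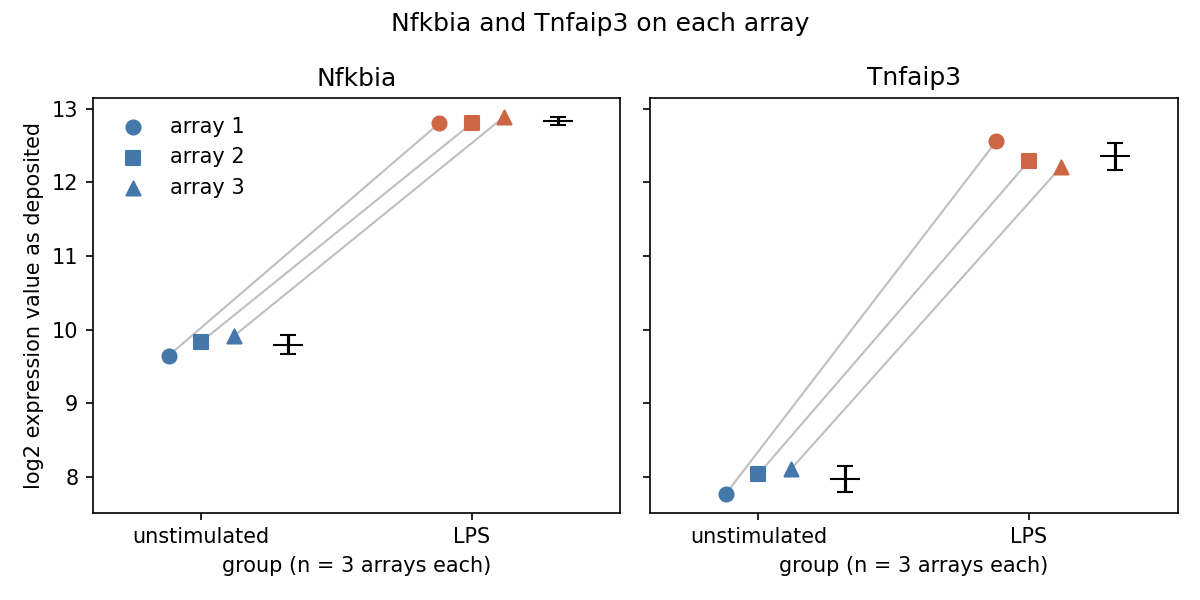
Log2 expression values as deposited for Nfkbia (left) and Tnfaip3 (right) on each of the 3 unstimulated (blue) and 3 LPS arrays (orange). Grey lines join same-numbered arrays, and black marks are the mean ± SD. All LPS values, from 12.21 to 12.89, lie above all unstimulated values, from 7.77 to 9.91.

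Both rows thus passed the test as higher with LPS. Of all 74007 rows, 32.0% passed in either direction and 8.75% were higher, so that passing the test is not in itself rare in these data. The share called higher depended on scaling, at 32.0% with each array centred on its median and 34.1% with centring on rows above the median level. The lowest LPS array was above the highest unstimulated array in 14.9% of rows. The size of the rise was less common. Rows called higher by at least 2-fold made up 3.00% of all rows, those higher by at least 8-fold 0.355%, and those higher by at least 16-fold 0.105%. The rise of Nfkbia exceeded 8-fold in the estimate but not at the lower end of its interval. The interval of Tnfaip3 lay above 16-fold throughout. With the replicate number as a block in the fit, the log2 interval was 4.02 to 4.76 for Tnfaip3 and 2.88 to 3.19 for Nfkbia. Without the block the intervals were 4.09 to 4.68 and 2.85 to 3.22. Ranked by the log2 difference, 253 rows rose more than Nfkbia and 38 rose more than Tnfaip3. A gene with several transcripts can hold several of these rows.

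**Figure D3:**
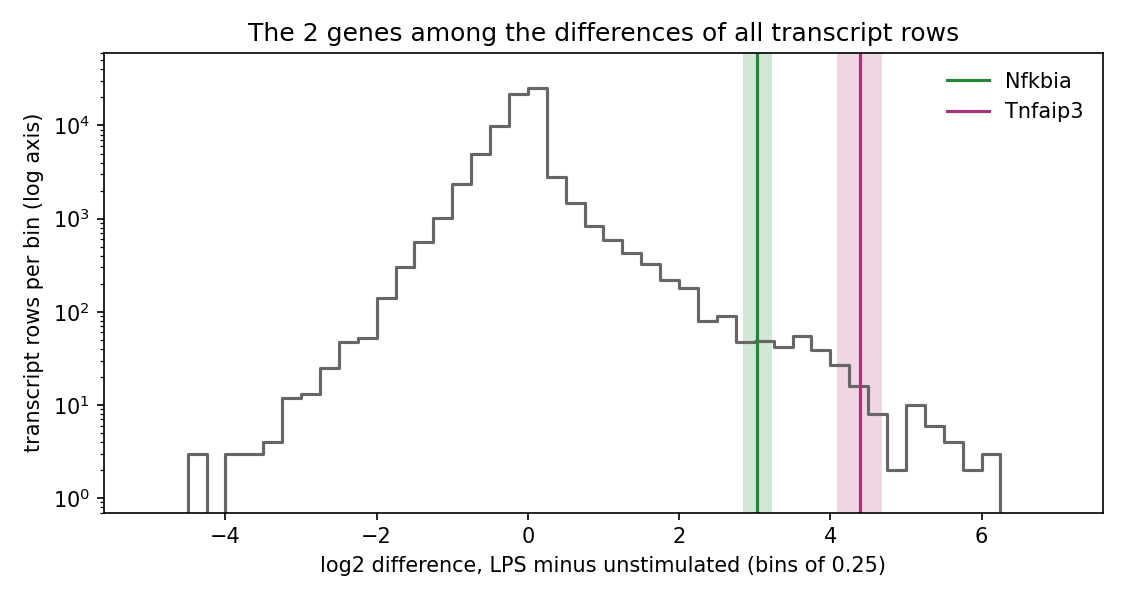
Number of transcript rows (log axis) by log2 difference, LPS minus unstimulated, in bins of 0.25, with Nfkbia and Tnfaip3 as vertical lines and their 95% confidence intervals shaded. Nfkbia at 3.04 and Tnfaip3 at 4.39 lie in the upper tail, past the bulk of rows near 0.

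The exact permutation test over arrays, which took them as unpaired, gave p = 0.1 for each gene (two-sided). That is the smallest value that 3 against 3 arrays can give. With 3 pairs, a sign-flip test within pairs can give no exact p below 0.25, and it was not run for either gene alone. The rise of each gene was at least 22.4 times its larger group SD. A limma test against a 2-fold change, rather than against no change, also passed for both, with adjusted p = 2.44e-05 for Nfkbia and 2.09e-05 for Tnfaip3. Of all rows, 1072 (1.45%) passed that test as higher. Relative to the array medians, which were lower with LPS, the differences were 3.18 for Nfkbia and 4.54 for Tnfaip3.

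Same-numbered arrays gave like differences. For Nfkbia, which replenishes IκBα, the LPS array exceeded its unstimulated partner on the log2 scale by 3.16, 2.97 and 2.98 in pairs 1, 2 and 3, or 8.92-fold, 7.83-fold and 7.90-fold. For Tnfaip3 it was 4.79, 4.26 and 4.11, or 27.7-fold, 19.1-fold and 17.3-fold. Pair 1 had the largest difference for both genes. For both, unstimulated array 1 had the lowest unstimulated value, and for Tnfaip3 LPS array 1 also had the highest LPS value. LPS array 1 did not stand apart for Nfkbia, whose highest LPS value was on array 3.

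The rise of Tnfaip3 was larger than that of Nfkbia in each pair. The log2 difference of Tnfaip3 exceeded that of Nfkbia by 1.63, 1.29 and 1.13 in pairs 1, 2 and 3 and by 1.35 on average, so that the fold change of Tnfaip3 was 2.55 times that of Nfkbia. Over all 9 combinations of an unstimulated and an LPS array the excess lay between 1.12 and 1.63. The value of Tnfaip3 minus that of Nfkbia varied between arrays of a group with an SD of 0.043 without and 0.22 with LPS (n = 3 each). An exact permutation test of this per-array value between groups, with arrays taken as unpaired, gave p = 0.1 (two-sided). A sign-flip test within pairs gave an exact p = 0.25. Each is the smallest value its test can give with these arrays. The excess concerns responses, and how far the fold of each probe set also depends on its probes was not tested. Levels of different probe sets depend on their probes. The higher unstimulated signal of Nfkbia is therefore no measure of its abundance relative to Tnfaip3.

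The position of each gene on the scale bears on these folds. The deposited values start near 6, with a 1st percentile between 6.22 and 6.24 on each array, and their largest value was 14.4. In the unstimulated arrays Tnfaip3 was higher than 46.7%, 52.5% and 54.1% of rows, and Nfkbia was higher than 83.9%, 86.2% and 86.9%. With LPS both were higher than between 99.1% and 99.8% of rows, depending on the array. After each array was reduced by its own 1st percentile before the logarithm, with an offset of 16, the log2 difference was 3.12 for Nfkbia and 4.76 for Tnfaip3, and the latter lies outside the interval from the deposited values (4.09 to 4.68). The excess of Tnfaip3 over Nfkbia was then 1.64. The values come without detection calls, and how much of the unstimulated Tnfaip3 signal is background was not tested.

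**Figure D4:**
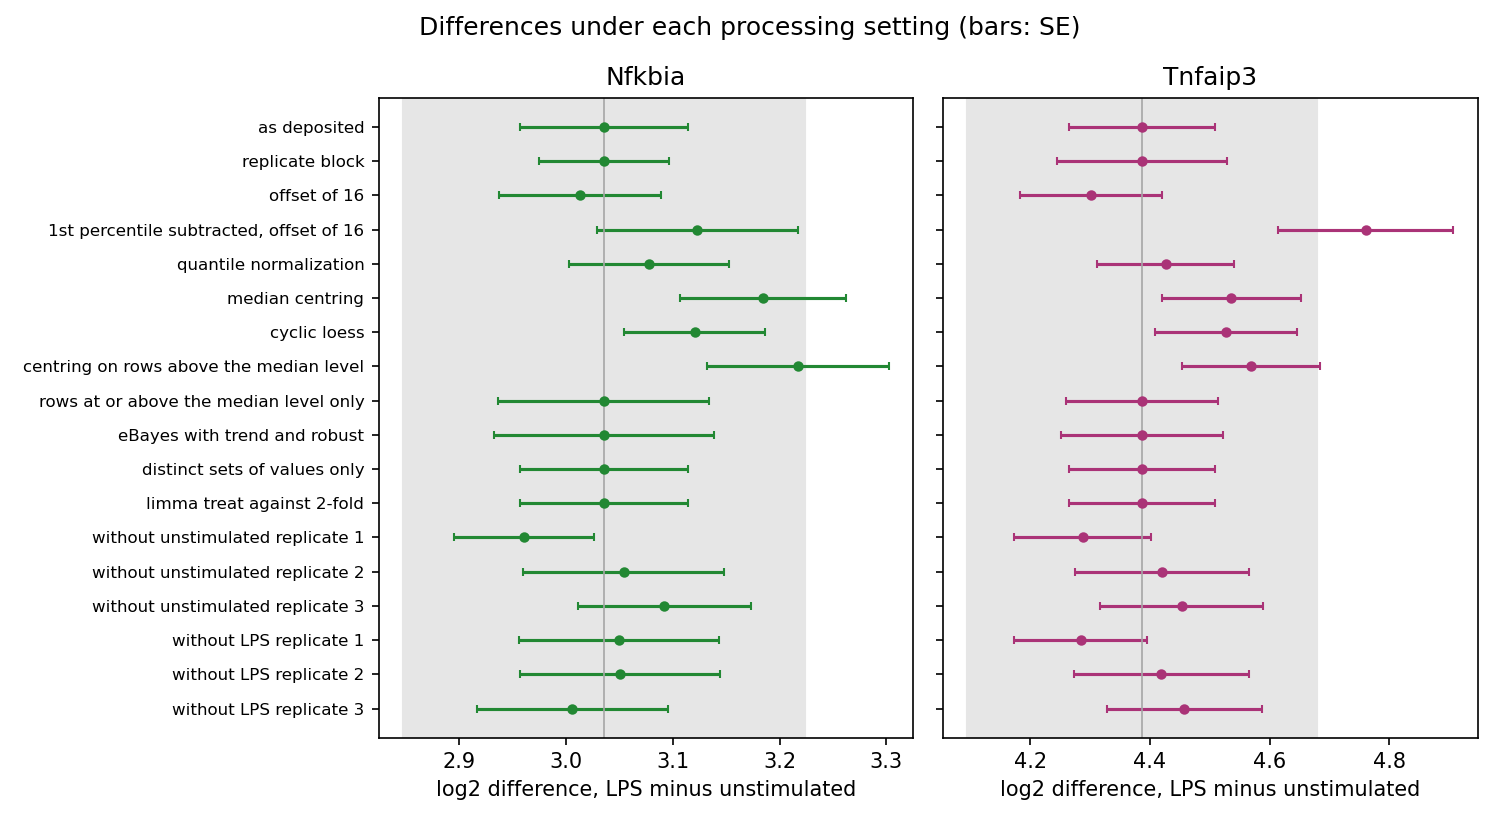
Log2 differences, LPS minus unstimulated, for Nfkbia (left) and Tnfaip3 (right) under each processing setting, with SE as bars and the 95% confidence interval of the deposited values shaded grey. The points run from 2.96 to 3.22 for Nfkbia and from 4.28 to 4.76 for Tnfaip3; only the background-subtracted Tnfaip3 point lies outside the shading.

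Spread between replicates differed between the genes. The unstimulated SD of Nfkbia, 0.14, was larger than that of 75.8% of rows, and its LPS SD, 0.051, was larger than that of 23.7% of rows. For Tnfaip3 the SDs of 0.18 in each group were larger than those of 85.9% of rows without and 81.4% with LPS. The median row had an SD of 0.078 without and 0.094 with LPS. The unstimulated values of both genes followed the same order across arrays, and array 1 was lowest for both. With LPS, array 3 was highest for Nfkbia and lowest for Tnfaip3.

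Rows with the most similar response were sought by expressing each row on the 6 arrays as a difference from its own unstimulated mean. Likeness was the root mean square of the gaps between profiles. A row picked in this way rises about as much as the gene, so its rise and adjusted p are no separate evidence. For Tnfaip3 the nearest row was ENSMUST00000105527_at, at 0.018. Its log2 values were 7.78, 8.00 and 8.06 without and 12.54, 12.27 and 12.17 with LPS, a rise of 4.38 or 20.8-fold (limma adjusted p = 4.22e-06). On no array did it differ from Tnfaip3 by more than 0.048, so the 2 rows need not be separate measurements; probes shared between them were not tested. In all, 2 rows lay within 0.05 of the Tnfaip3 profile and 12 within 0.2.

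For Nfkbia the nearest row, ENSMUST00000079421_at, was less close, at 0.083. It was at 9.15, 9.37 and 9.30 without and 12.24, 12.17 and 12.25 with LPS, a rise of 2.94 or 7.69-fold (limma adjusted p = 3.14e-06). No row lay within 0.05 of the Nfkbia profile, and 56 lay within 0.2. Neither of the 2 rows could be given a gene name, and neither gene shared all 6 values with any other row.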

How the data were processed

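The values are log2 expression as deposited by the authors for transcript-level probe sets, according to the series text. PLIER and Affymetrix Power Tools are named in the submitters' processing notes. The sources used here do not state how arrays were normalized, any offset, the build or the probe-set annotation. Values were used as deposited, without filter or offset.

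Arrays were grouped by title. limma 3.58.1 in R 4.3.3 (lmFit, eBayes; 4 residual and 2.58 prior degrees of freedom, prior SD 0.0857) tested LPS minus unstimulated over all 74007 rows, two-sided, with Benjamini-Hochberg adjustment at a threshold of 0.05, and was tested on simulated data. Exact permutation tests used scipy 1.17.1. The number of arrays limits the precision. The series text says each of 3 animals gave 1 culture per group. Deviations of same-numbered arrays correlated at 0.50, 0.30 and 0.12 across rows, each above 0.1, so the numbers were taken as pairs. LPS array 3 nevertheless correlated more with unstimulated array 2 (0.21) than with array 3. The main limma fit, with its SE, intervals and adjusted p, left this pairing out, and the fit with the replicate number as a block is an alternative.

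Both genes, the motifs and the pathway and marker lists were chosen with earlier results of these data known. The lists (IκB family, NF-κB subunits, A20 partners, IκB kinase and upstream, other brakes on TLR signalling, cell type markers) were not tested, as rows could not be named. Rows were named by the rule that takes both genes and, for each, the nearest distinct row by response profile. Figures were drawn with matplotlib 3.10.9.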

Additional observations from a re-analysis of the deposited data

How the results depend on the processing

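Nfkbia and Tnfaip3 stayed higher with LPS and past the limma threshold in all 17 alternatives, with log2 differences from 2.96 to 3.22 and from 4.28 to 4.76 and a largest adjusted p of 0.000119 and 0.000188. Leaving out 1 array gave 2.96 to 3.09 and 4.28 to 4.46. With the replicate number as a block the differences were the same, 3.04 and 4.39, with adjusted p = 0.000101 and 0.000188; the block changed no call of these genes, and 26284 rows were called with it. The excess of the Tnfaip3 response over that of Nfkbia lay between 1.23 (without LPS array 1) and 1.64 in 13 alternatives; the eBayes, filter, distinct-row and treat settings leave it as it is and were not run for it. The row nearest to Tnfaip3 was the same in 16 of 17 settings and that nearest to Nfkbia in 11 of 17. Rows called over the whole table went from 23667 to 35595 with median centring, 36029 with centring on rows above the median level and 1587 with limma's treat, which tests against 2-fold itself. Of all calls 27.3% were higher as deposited, 43.4% after quantile normalization, 66.6% with median centring, 70.0% with centring on rows above the median level and 48.7% after cyclic loess. Without any 1 array, 18380 to 22009 rows were called. No detection level was used, so signal over background is unknown.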
